A study of Homo sapiens with 13 samples.

Results

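In TE-7 cells, a human line established from esophagus and labelled esophageal epithelial, 443 transcription starts carried a peak of H3K4me3 and none of H3K27Ac. They were selected on those peak lists: a start was taken when its transcript identifier stood in the deposited H3K4me3 table and was absent from the H3K27Ac table. They made up 2.83% of the 15630 starts with H3K4me3, and the other 15187 starts had both marks. The 443 starts lay in 391 separate peaks and belonged to 403 genes. No start with H3K27Ac was listed for 373 of these genes, and 30 genes had H3K27Ac at another of their starts. The presence of H3K4me3 and the absence of H3K27Ac are therefore properties of the rule and not results, whereas H3K9Ac and RNA were not used to choose the starts.

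H3K4me3, the trimethylated lysine 4 of histone H3, is laid down by SET1 and MLL methyltransferases and marks the starts of active genes, but also starts rich in CpG dinucleotides that are poised or silent. H3K27Ac and H3K9Ac are acetylations written by different enzymes, p300 and CBP for the first and GCN5 and PCAF for the second, and both accompany transcription. At silent developmental genes H3K4me3 can coexist with H3K27me3, the mark of the Polycomb complexes, in what are called bivalent promoters. A lysine 27 that is methylated cannot be acetylated. H3K27me3 was not analysed here.

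The cells were grown in RPMI with 5% fetal calf serum and given 100 ng/ml of interleukin-13 (IL-13), the type 2 cytokine of allergic inflammation, or left untreated. RNA was sequenced from control and treated cells at 2, 6 and 24 hr. The histone marks were measured by chromatin immunoprecipitation and sequencing (ChIP-seq) in control cells and after 6 hr of IL-13. Each treatment, time and mark had a single library, so no difference between 2 libraries has a replicate error. An effect shared by the 3 times was not tested, and every difference below compares libraries. The files do not say which ChIP library of a mark was treated, so the pair is called library 1 and library 2.

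The RNA libraries held 1 or 2 read sets of 13.0 to 26.9 megareads each. All 9 epithelial markers examined, among them EPCAM and KRT5, exceeded an RPKM of 1 in every library. The 2 and 6 hr controls shared 359 identical values above 0, against 0 in every other pair of libraries, so their difference is not used. Each of these controls held a read set of 15.7 megareads, and whether they share reads was not tested. The 14 brain markers summed to 33.0 RPKM in the 2 hr control and to between 9.22 and 14.6 elsewhere, and 13 of them were highest in that control. RPKM scales reads to gene length and sequencing depth.

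The starts ranged from CpG-rich to CpG-poor, and 3 promoters are printed to show that range. Each covers 250 bases before to 50 bases after the start as given by RefSeq on GRCh38.p14, 5′ to 3′ on the strand of the gene. Capitals mark CG dinucleotides and the TATA box core TATAAA on either strand. PRTG encodes protogenin, an immunoglobulin superfamily receptor of the embryo (chr15:55743103-55743402, minus strand, 33 CG). INSM2 encodes a zinc finger factor of neuroendocrine cells (chr14:35533914-35534213, plus strand, 35 CG). IFNG encodes interferon gamma, a cytokine of lymphocytes (chr12:68159691-68159990, minus strand, 2 CG).
PRTG: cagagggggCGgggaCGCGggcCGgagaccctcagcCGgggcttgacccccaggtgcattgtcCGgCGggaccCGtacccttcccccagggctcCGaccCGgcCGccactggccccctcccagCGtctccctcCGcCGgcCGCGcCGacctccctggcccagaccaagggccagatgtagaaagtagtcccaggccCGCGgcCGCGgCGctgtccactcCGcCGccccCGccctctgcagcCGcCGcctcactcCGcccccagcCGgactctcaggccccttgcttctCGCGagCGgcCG
INSM2: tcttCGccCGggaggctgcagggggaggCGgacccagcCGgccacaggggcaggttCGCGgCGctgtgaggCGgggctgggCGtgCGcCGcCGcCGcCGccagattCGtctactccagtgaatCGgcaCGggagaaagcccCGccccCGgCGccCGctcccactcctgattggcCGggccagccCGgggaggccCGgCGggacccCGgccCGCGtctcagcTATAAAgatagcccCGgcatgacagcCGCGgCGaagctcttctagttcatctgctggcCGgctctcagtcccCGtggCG
IFNG: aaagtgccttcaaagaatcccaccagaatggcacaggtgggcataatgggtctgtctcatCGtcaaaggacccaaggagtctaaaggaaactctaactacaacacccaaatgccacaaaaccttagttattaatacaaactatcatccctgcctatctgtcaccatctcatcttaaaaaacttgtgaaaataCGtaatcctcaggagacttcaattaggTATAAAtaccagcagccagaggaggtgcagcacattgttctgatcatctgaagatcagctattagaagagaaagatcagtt
The H3K4me3 level of the higher library was 70.0 at PRTG, 57.9 at INSM2 and 8.03 at IFNG, so the CpG-poor start was the weakest of the 3.

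Of the 10 microRNA entries among the starts, 9 matched RefSeq. The 5 mature sequences shown belong to the entries with the most H3K4me3, with the seed (bases 2 to 8), which pairs with target RNAs, in capitals. MIR23A, MIR27A and MIR24-2 are processed from 1 primary transcript, and their starts were listed with 1 peak on chromosome 19.
miR-671-5p: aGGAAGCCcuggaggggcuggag
miR-671-3p: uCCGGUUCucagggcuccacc
miR-23a-3p: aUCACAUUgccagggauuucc
miR-27a-3p: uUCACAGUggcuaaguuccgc
miR-24-3p: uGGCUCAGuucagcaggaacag
No seed is shared among the printed sequences. MIR3180-2 and MIR3180-5, copies of a gene family, share the seed GGGGCGG with each other.

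H3K4me3 at the 443 starts was weak. The level of a peak was computed as 2 to the power of A plus or minus M/2, where M, the log2 ratio of library 1 over library 2, and A, the mean log2 level, are the authors' values. In the higher library the level had a median of 11 (interquartile range 7.01 to 17.0, range 3.99 to 249), against 73.8 (45.1 to 111) at starts with both marks. A level of 30 was reached by 36 starts (8.13%), against 86.5% of starts with both marks. In library 2, levels under 10 lay on whole numbers, within 0.05, at 98.7% of 237 starts, as counts of single reads would. In library 1, 33.3% of 291 levels under 10 lay on multiples of its lowest level, 0.787, within 0.05 of a multiple. Only multiples of that value were tried, so this cannot show whether library 1 levels lie on steps of another size.

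**Figure D1:**
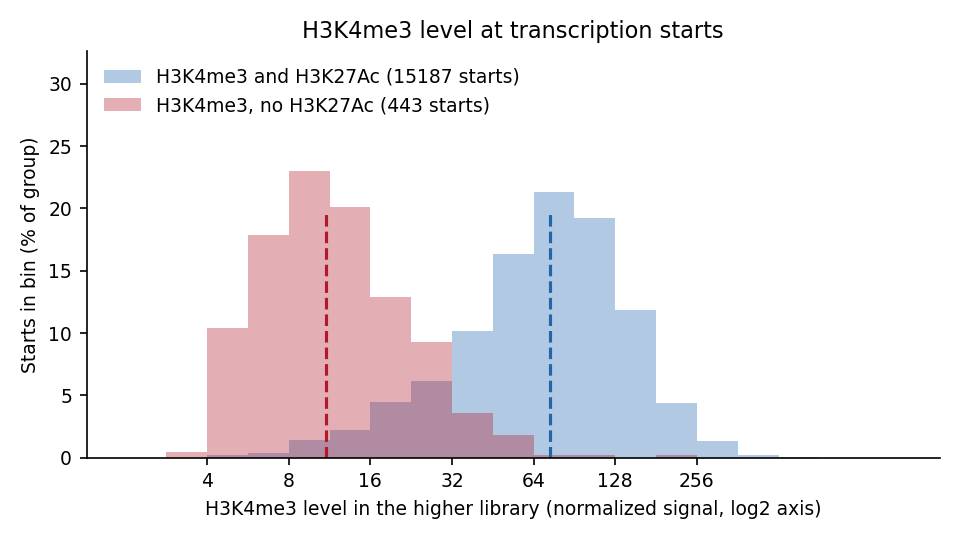
Histogram of the H3K4me3 level in the higher library (x axis, log2 scale) as percent of starts in each bin (y axis), for the 443 starts without H3K27Ac (red) and the 15187 starts with it (blue), with dashed lines at the medians of 11 and 73.8. The red distribution lies to the left, with a tail above a level of 30.

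Among the strongest starts, several lay in peaks that were also listed at a neighbouring start with H3K27Ac. LOC100506548, a noncoding RNA start on chromosome 5 at position 40829244 (hg19, as are all positions that follow), had the highest level, 249 in library 1 and 145 in library 2, and SNORD72, 3593 bases away, had H3K27Ac. MIR671 (99.7), LAG3 (51.1), GPLD1 (40.9) and HIST1H4D (34.9) likewise shared their peak with an H3K27Ac start. In all, 18 of the 443 did so. PRTG, INSM2, GKAP1 (53.1), a partner of a cGMP-dependent kinase, TDRKH (52.0), a Tudor protein of the piRNA pathway, ELOVL4 (50.2), an elongase of very long fatty acids, KCNMB4 (47.0), a potassium channel subunit, and KBTBD8 (45.9), a ubiquitin ligase adaptor, had peaks of their own.

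Starts with H3K27Ac were usually distant. The median distance from the 443 starts to the nearest one was 73506 bases, with an interquartile range of 30880 to 162950. It was over 100 kb for 172 starts, within 10 kb for 40, within 5 kb for 15 and within 1 kb for 2. Those 2 were a start of HOXB-AS3, a noncoding RNA of the HOXB cluster, 28 bases from another with an H3K27Ac level of 135, and a start of DNAJB5, a chaperone, 629 bases from another with 44.5.

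Most of these peaks were called in a single library, and mainly in library 2. A peak was called in both libraries at 109 starts (24.6%), in library 1 only at 75 (16.9%) and in library 2 only at 259 (58.5%). Over all H3K4me3 starts 3.52% were called in library 1 only and 6.21% in library 2 only. Under a level of 10, however, most starts of both groups were single-library. Called in library 1 only and library 2 only were 35 and 153 of 193 of these starts, and 51 and 171 of 236 with both marks. From 10 to 20 they were 37 and 82 of 158, and 210 and 292 of 849. Library 2 thus held 77.5% of the single-library peaks of these starts, and 59.9% of those at starts with both marks. Among starts with a level under 10 the shares were 81.4% and 77.0%, from 10 to 20 they were 68.9% and 58.2%, and from 20 to 30 they were 92.3% and 63.1%. The gap was thus small among the weakest peaks and wide in the class from 20 to 30, where 24 of these starts were called in library 2 only and 2 in library 1 only. Since the treated library is not known, no part of the difference can be assigned to IL-13.

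**Figure D2:**
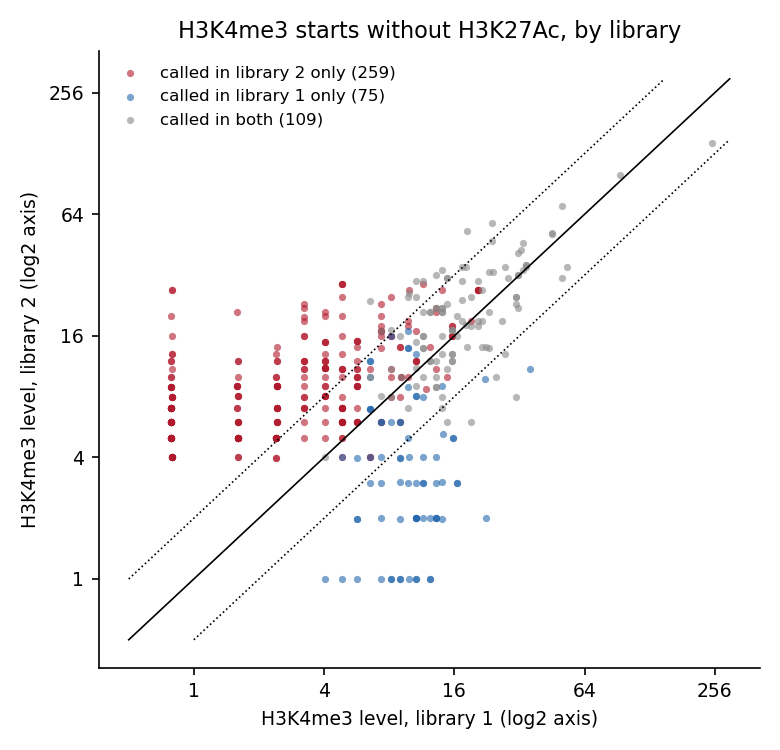
H3K4me3 level in library 1 (x axis) and library 2 (y axis), both on log2 axes, for the 443 starts, coloured by the library in which the peak was called. The solid line is equality and dotted lines are 2-fold differences; the 259 red points, called in library 2 only, lie above the solid line far more often than the 75 blue points.

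Differences of at least 2-fold between libraries were counted only at a level of 30 or more, where 36 starts could be compared. Library 1 was higher at 2 (5.56%), against 4.8% of all H3K4me3 starts, and library 2 at 7 (19.4%), against 3.57%. The 2 were BSPRY, at 30.8 against 7.97, and IL7, which encodes a lymphocyte growth factor, at 35.9 against 11. Higher in library 2 were INSM2 (24.0 and 57.9), GKAP1 (18.3 and 53.1), RHOF (17.3 and 34.9), which encodes a small GTPase of filopodia, YPEL2 (14.0 and 34.1), ENTPD8 (13.2 and 32), a nucleotide-hydrolysing ectoenzyme, and 2 starts of FKBP5 in 1 peak. None reached a deposited −log10 p of 5.

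H3K9Ac separated the starts into groups of like size. An H3K9Ac peak was listed at 227 of 443 (51.2%), against 15109 of 15187 (99.5%) starts with H3K27Ac. Where present it was weak, with a median level of 17.9 (interquartile range 11.6 to 27), against 165. The share was higher where H3K4me3 was higher, going from 29.5% of 193 starts under a level of 10 to 66.5%, 64.3% and 80.6% in the classes from 10 to 20, 20 to 30 and 30 or more. Starts with H3K27Ac had 85.6%, 96.0%, 99.3% and 99.98% in these classes, so at each H3K4me3 level H3K9Ac was less frequent without H3K27Ac. The class limits were chosen after the levels were seen.

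**Figure D3:**
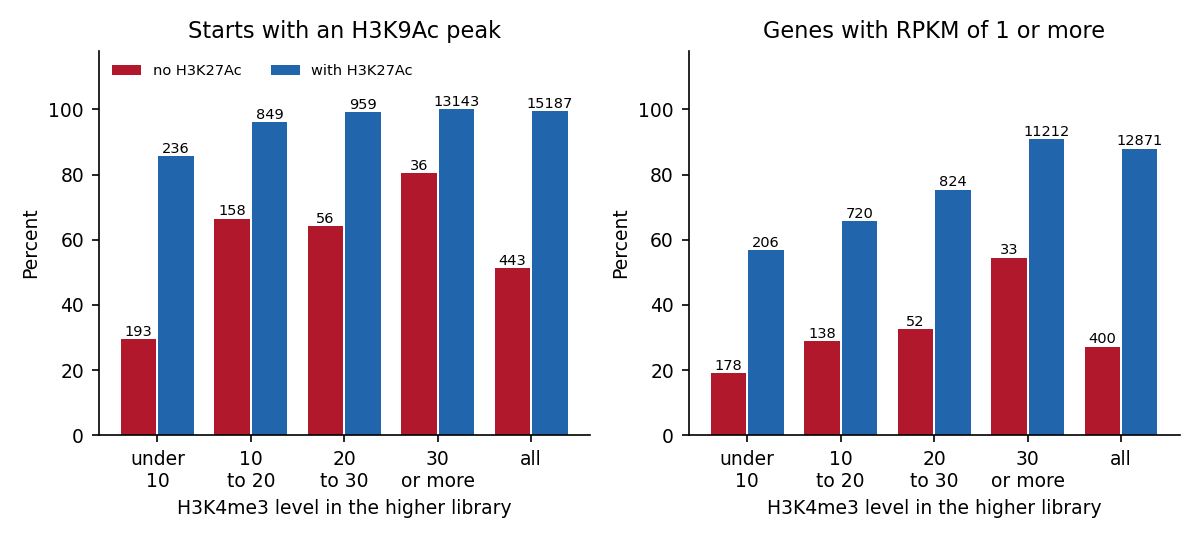
Percent of starts with an H3K9Ac peak (left) and percent of genes that reached an RPKM of 1 in any library (right), by class of H3K4me3 level (x axis), without H3K27Ac (red) and with it (blue). Genes of the red bars include the 30 with H3K27Ac at another start. Numbers above bars are starts or genes; the red bar is lower than the blue bar in every class, for example 29.5% against 85.6% and 19.1% against 56.8% under a level of 10.

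A peak called in both H3K4me3 libraries had H3K9Ac at 81 of 109 starts (74.3%), and one called in a single library at 146 of 334 (43.7%). The H3K9Ac peaks were called in both H3K9Ac libraries at 77 starts, in library 1 only at 58 and in library 2 only at 92. Over all H3K9Ac starts the single-library shares were 3.73% and 4.59%. Of the 41 with an H3K9Ac level of 30 or more, library 1 was 2-fold higher at 7 and library 2 at 6 (all H3K9Ac starts: 2.26% and 1.62%). Among them SIM1, a transcription factor of the hypothalamus, had 53.8 in library 1 and 15 in library 2, and UAP1L1, related to enzymes of amino sugar activation, had 19.7 and 49.9.

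The strongest H3K9Ac lay at LOC100506548 (358 and 450) and at the MIR23A, MIR27A and MIR24-2 peak (252 and 211). The latter stood 40590 bases or more from any H3K27Ac start, and its H3K4me3 levels were only 20.7 and 26.9. LOC284454, the noncoding host RNA at that peak, was transcribed, with RPKM of 4.09, 4.57 and 4.57 in the controls and 3.28, 3.82 and 2.65 with IL-13 at 2, 6 and 24 hr. The microRNA genes themselves were listed at 0 in every library, which reports on reads of their short precursors and not on mature microRNA.

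The genes of these starts were mostly silent or near silent. Of the 373 genes without any H3K27Ac start, 370 were in the RNA tables, and 85 (23%) reached an RPKM of 1 in at least 1 library. Among genes with H3K27Ac 87.9% did. The share in single libraries was 15.7% in the 2 hr control, 15.7% with IL-13 at 2 hr, 14.1% and 14.6% at 6 hr, and 19.2% and 18.6% at 24 hr, and 45 genes passed in all 6. Without the 2 hr control, in which brain transcripts stood out, 83 genes (22.4%) remained. In these bulk samples few expressing cells and little RNA per cell cannot be told apart.

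Genes with equally weak H3K4me3 but with H3K27Ac were transcribed more often. Those with H3K27Ac whose H3K4me3 was under 30 reached an RPKM of 1 in 67.7% of cases. By class of H3K4me3 level, from under 10 to 30 or more, the shares were 19.1%, 29.0%, 32.7% and 54.5% for genes of the 443 starts, and 56.8%, 65.7%, 75.4% and 90.9% for starts with H3K27Ac. The genes of the 443 starts here include the 30 with H3K27Ac at another start, and over all classes 109 of 400 (27.25%) passed. Among the 370 genes with no H3K27Ac start, 55 of 185 (29.7%) with H3K9Ac passed, against 30 of 185 (16.2%) without. Their median highest RPKM was 0.314 and 0.0816, so most genes in both groups lay far below 1. The split was not made within classes of H3K4me3 level, although H3K9Ac was least frequent in the lowest class and most frequent in the highest.

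**Figure D4:**
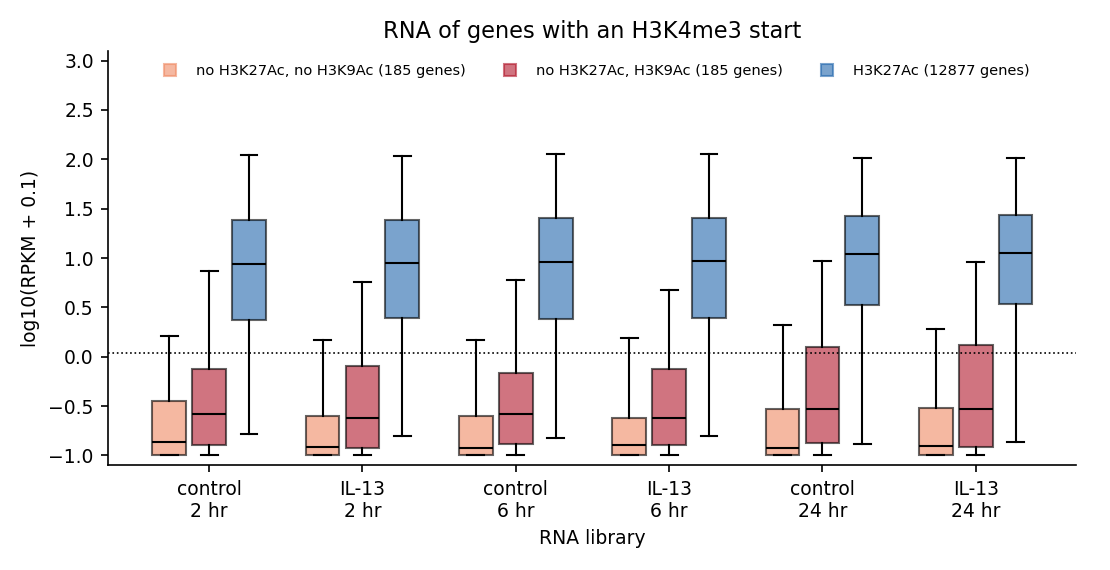
RNA level as log10(RPKM + 0.1) (y axis) in each of the 6 libraries (x axis) for genes with no H3K27Ac start, without or with H3K9Ac (185 genes each), and genes with H3K27Ac. Boxes are quartiles with the median, whiskers the 5th and 95th percentiles over genes, and the dotted line an RPKM of 1; both red groups have medians below the line in every library.

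A few genes were well transcribed without H3K27Ac at any listed start. SCPEP1, a serine carboxypeptidase, had RPKM of 15.5, 15.4 and 32.8 in the controls and 15.3, 14.5 and 35.1 with IL-13. DBN1, the actin-binding protein drebrin, had 11.5, 11.8 and 18.7 in the controls and 12.3, 12.7 and 20.2 with IL-13. TMEM181, a membrane protein with no H3K9Ac peak either, stayed between 9.81 and 13.8 in all 6 libraries. The H3K4me3 levels of these starts in the higher library were 9.82, 17.0 and 26.6. Those high in mean RPKM also included SDHAP3 and SUMO1P3, pseudogenes whose reads can come from their parent genes and are uncertain.

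Regulators of development were present in small numbers, and 1 of those on the lists reached an RPKM of 1. Of homeobox and related patterning factors, 94 genes had H3K4me3 and 6 (6.38%) lacked H3K27Ac, against 2.79% of all genes with H3K4me3. Among genes with an H3K4me3 level under 30 it was 5 of 26 (19.2%), against 17.0% of all such genes, so most of the excess was absent there. Levels were not matched within this range. Under 10, 45.0% of all H3K4me3 starts lacked H3K27Ac, and from 20 to 30 it was 5.52%. The patterning factors without H3K27Ac included SATB1, POU3F1, NKX3-2, ONECUT2 and GSX1, and the highest RPKM of the group in any library did not exceed 0.356. POU3F1, a POU factor of neural and epidermal cells, had H3K4me3 levels of 8.20 and 25 and no H3K9Ac, whereas NKX3-2, a factor of skeletal patterning, had 15.7 and 12 with H3K9Ac of 23.8 and 16.1. Of other developmental transcription factors 9 (7.26%) lacked H3K27Ac, and 8 of 40 (20%) among those with a level under 30, again near the 17.0% of all genes.

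INSM2, the strongest of that second group, was listed at RPKM between 0 and 0.0101 in the 6 libraries with H3K4me3 of 24.0 and 57.9 and no H3K9Ac peak. ATOH8 (17.3 and 24.0), a basic helix-loop-helix factor, and PRDM6 (10.7 and 25), a repressor of smooth muscle, also stayed under an RPKM of 0.05. SOX18, a factor of vessel development, was the exception, with RPKM of 2.23, 3.44 and 1.34 in the controls and 1.97, 2.67 and 1.71 with IL-13. It exceeded 1 in all 6 libraries, and the ranges of control and treated libraries overlapped.

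Signalling molecules and genes of excitable cells lacked H3K27Ac more often than all genes. Of developmental ligands, receptors and antagonists it was 11 of 90 (12.2%), and of ion channels, transmitter receptors and synaptic genes 14 of 80 (17.5%). Weak peaks were frequent in these lists: 33 of the 90 and 42 of the 80 genes had an H3K4me3 level under 30, as had 2018 of 13346 of all genes. Among such genes the shares without H3K27Ac were 30.3% and 31.0%, against 17.0%, a smaller ratio than over all levels. Levels were not matched within this range either, and whether weaker peaks account for the remaining gap was not tested. DLL4, a Notch ligand of endothelium, had levels of 34.2 and 34.9 with H3K9Ac of 35 and 44.9, but RPKM between 0.124 and 0.314. WNT5A, a secreted Wnt, had 19.0 and 6.02 and RPKM of 0.104, 0.110 and 0.429 in the controls.

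None of the 11 ligands and receptors reached an RPKM of 1, and 3 of the 14 channel and synaptic genes did. SNAP25 was among the latter, but only in the 2 hr control, in which brain transcripts stood out. KCNH3, a voltage-gated potassium channel, was at 2.19, 2.36 and 2.66 in the controls and 2.15, 2.55 and 1.94 with IL-13. KCNMB4 had H3K4me3 of 24.0 and 47.0 and RPKM from 0.254 to 0.604, and KCNH8, also a potassium channel, had 10.7 and 29.96 and no RPKM over 0.0563. KCNH3, with the most RNA of these 3 channels, had the lowest H3K4me3 in its higher library, 14.0.

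Other lists gave few or no genes, where 2.79% of all genes with H3K4me3 lacked H3K27Ac. Of 423 zinc finger genes with H3K4me3 only ZNF521 (0.236%) lacked H3K27Ac, and of 72 histone genes only HIST1H4D did. None did among 81 ribosomal protein genes, 40 chromatin enzymes, 27 interferon-stimulated genes, 13 IL-13 responsive genes of epithelia, 9 squamous differentiation genes or 4 protocadherins. At the share of all genes, a count of 0 says little about the shorter of these lists. Of noncoding genes, 26 of 586 long noncoding names (4.44%), 10 of 292 microRNA genes (3.42%) and 5 of 177 small nucleolar RNA genes lacked H3K27Ac. Of 9 olfactory receptor genes 6 (66.7%) did, with levels of 3.99 to 9 and no H3K9Ac. Among all H3K4me3 starts with a level under 10, 45.0% lacked H3K27Ac. OR2A7, OR2A9P and OR2A20P had the same M and A, so 1 peak can be counted more than once here. Of 9 meiosis and germ cell genes the 2 without H3K27Ac were TDRKH and MAEL, both of the piRNA pathway.

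Few of the RNAs differed between IL-13 and control. A gene was counted when it differed at least 2-fold on log2(RPKM + 0.1) and reached an RPKM of 1 in the higher library. At 2 hr 0 of 60 genes were higher and 2 lower, where 0.658% and 0.342% of all genes compared were. At 6 hr 0 of 55 were higher and 0 lower, against 0.753% and 0.318%. At 24 hr 2 of 77 were higher and 3 lower, against 0.886% and 1.27%. The median log2 difference of the genes compared was −0.04, −0.0016 and 0.04.

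OVOL1, a zinc finger repressor that drives epithelial differentiation, was the most abundant of the 5 at 24 hr. Its RPKM was 23.2, 4.33 and 38.7 in the 2, 6 and 24 hr controls and 21.1, 3.23 and 15.3 with IL-13. The treated library was thus lower at each time and 0.395-fold the control at 24 hr, a log2 difference of −1.33, and the authors' deposited table gives an adjusted p of 3.14e-07 for it. The start, at position 65554505 of chromosome 11, carried H3K4me3 of 21.5 and 27 and H3K9Ac of 20.7 and 29.96, and the nearest H3K27Ac start, of AP5B1, was 6443 bases away.

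ENTPD8 had RPKM of 0.585, 0.295 and 1.27 in the controls and 0.539, 0.333 and 0.225 with IL-13, so only the 24 hr pair differed 2-fold. It was 0.178-fold the control there, with an adjusted p of 0.0716 in the authors' deposited table. The other 3 were OR2A9P, OR2A20P and MIR4517. OR2A9P had 2.02 in the control and 0.874 with IL-13 at 24 hr, and OR2A20P was listed at 0 and had 1.45. The authors' deposited table gives them adjusted p-values of 1 and 0.0322. These near-identical olfactory receptor pseudogenes moved in opposite directions under 1 peak, and reads can be split between them, so their differences are uncertain. MIR4517, a gene shorter than 300 bases, was listed at 0 and at 1.81.

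**Figure D5:**
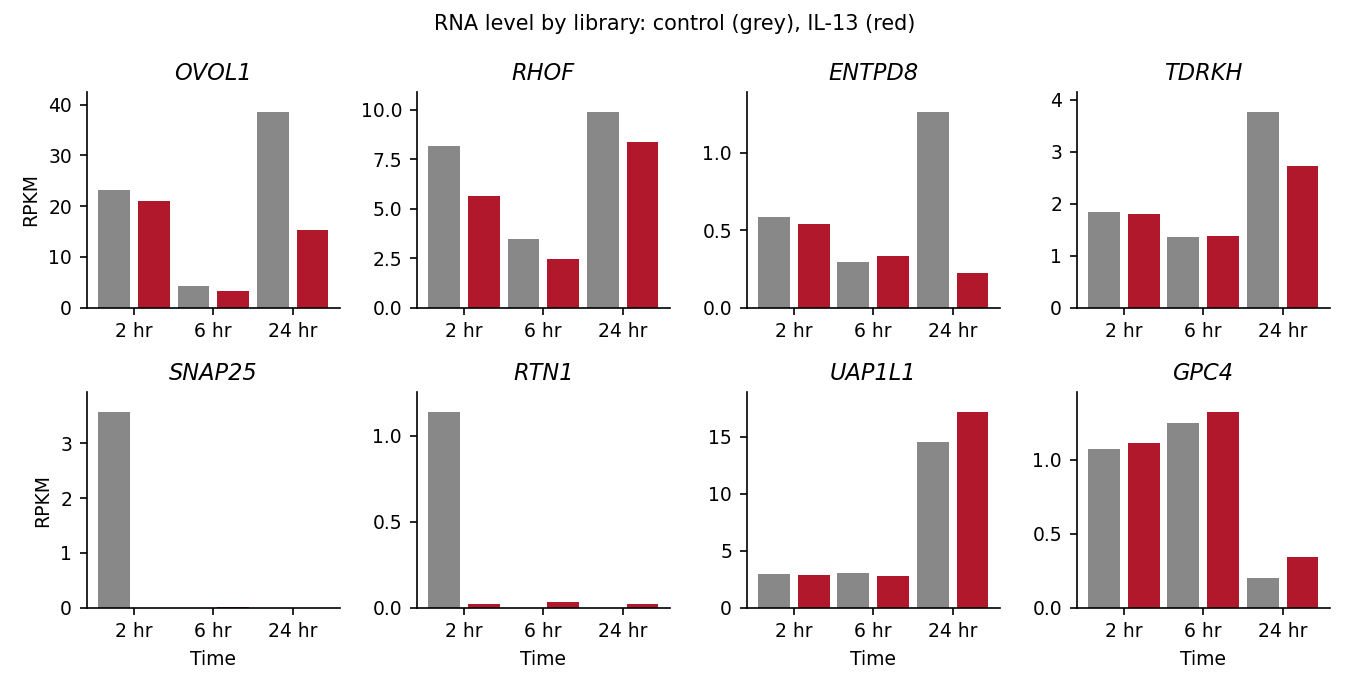
RPKM (y axes, each from 0) of 8 genes in the 6 RNA libraries by time (x axis), control in grey and IL-13 in red, 1 library per bar. OVOL1 and ENTPD8 are lower with IL-13 at 24 hr, SNAP25 and RTN1 are seen in the 2 hr control almost alone, RHOF, TDRKH and UAP1L1 are highest at 24 hr and GPC4 is lowest there.

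The 2 genes lower at 2 hr are neuronal. SNAP25, a vesicle fusion protein of synapses, had an RPKM of 3.57 in the 2 hr control and at most 0.0133 in the other 5 libraries. RTN1, a reticulon of neurons, had 1.14 there and at most 0.0320 elsewhere. The brain markers GFAP and MT3, which are no members, were at 2.06 and 1.44 in that control and at most 0.135 elsewhere, and their part in these differences was not tested. Of the 6 fibroblast markers, LUM and PDGFRA were among the 373 genes and did not exceed an RPKM of 0.906 and 0.0434. COL1A1, which had H3K27Ac, was the only 1 of the 6 to reach an RPKM of 1, at 2.04 to 3.89.

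Between the 6 and 24 hr controls many of these genes were higher at 24 hr. Of 76 compared, 36 (47.4%) were higher and 6 (7.89%) lower, where 16.2% and 6.09% of all genes compared were. The median log2 difference was 0.89, against 0.23 for all genes, and with differences centred on that median 25 were higher. In the range of 1 to 5 RPKM in the higher library, 26 of 48 (54.2%) were higher, against 23% of 2143 genes with H3K27Ac. The IL-13 libraries, which are separate from the controls, gave 32 of 75 (42.7%) higher and 3 lower, where 14.9% and 5.01% of all genes were. With a pseudocount of 1 the control counts were 15 and 2. Shares of all genes were not computed with that pseudocount or with centring, so no excess can be read from those counts. The count of 36 compares 24 hr with 6 hr alone, so a gene low at 6 hr can pass without exceeding its 2 hr control. HEG1 had RPKM of 1.95, 0.449 and 1.27 in the 2, 6 and 24 hr controls, and MAST4 had 4.28, 1.48 and 3.49. How many of the 36 were of this kind was not counted. The 24 hr columns alone carry a date and passage in their headers, so time and batch cannot be told apart. Each 24 hr library also held 1 read set, whereas each library at 2 and 6 hr held 2.

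UAP1L1 had RPKM of 2.95, 3.08 and 14.5 in the controls and 2.87, 2.76 and 17.2 with IL-13. ATP6V1C2, a subunit of the proton pump of vesicles, had 3.48, 2.65 and 16.3, and 3.93, 2.43 and 17.5. In both genes the pair of 24 hr libraries stood above the other 4 without overlap. CTSF, the lysosomal protease cathepsin F, had 4.48, 2.95 and 8.75 in the controls and 3.88, 2.80 and 8.36 with IL-13. PHLDB1 had 1.54, 1.73 and 4.88 in the controls and 1.41, 1.40 and 4.29 with IL-13. GPC4, a cell-surface heparan sulfate proteoglycan, ran the other way, with 1.08, 1.25 and 0.198 in the controls and 1.11, 1.32 and 0.346 with IL-13.

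The 30 genes with H3K27Ac at another start are kept apart, since their RNA can come from that start, except in the shares by class of H3K4me3 level. They include the transcription regulator ARID5B, whose RPKM was 2.84, 2.69 and 18.5 in the controls and 9.53, 6.74 and 27.1 with IL-13, higher in the treated library at each time. Its start at position 63808970 of chromosome 10 had H3K4me3 of 23.2 and 14.0. NR2F2, an orphan nuclear receptor, had 5.54, 8.06 and 4.04 in the controls, and its start without H3K27Ac had H3K4me3 of 53.1 and 35 and H3K9Ac of 138 and 161. PTCH1, the Hedgehog receptor, and the apoptosis genes BMF and BBC3 also belong here.

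The edge of the rule is gradual. The lowest H3K27Ac levels at starts that were not taken were 3.94 at PAG1, 4.94 at MPP1, LHX6 and XKRX, and 4.99 at MCOLN2. The 108 starts whose H3K27Ac level was under 10 had a median H3K4me3 level of 17.3. Of them 83.3% had H3K9Ac, and 30 of 83 genes (36.1%) reached an RPKM of 1. Both shares lay between those of the 443 starts and of all starts with H3K27Ac.

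In sequence, the promoters were CpG-rich less often than those with H3K27Ac over all levels, but not consistently so within classes of H3K4me3 level under 30. Of 350 genes whose marked start was the gene's own 5′ end, 150 had a single RefSeq entry, as had 6250 of 12482 genes with H3K27Ac. Their GC content had a median of 64.2%, against 66.3%. The median ratio of observed to expected CpG was 0.780 (interquartile range 0.539 to 0.886), against 0.867 (0.750 to 0.967), and it was at least 0.6 in 107 (71.3%), against 90.1%. At starts with H3K27Ac and H3K4me3 under 30 that share was 76.4%, and over all 22114 single-entry promoters it was 47.1%. By H3K4me3 level it was 63.2% against 61.5% with H3K27Ac under 10, 73.6% against 75.1% from 10 to 20, and 88.2% against 81.4% from 20 to 30. Among the 150 it was 77.6% with H3K9Ac and 64.9% without it.

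Motifs were searched on both strands in the 300 bases. TATAAA, the TATA box core, was in 22 (14.7%), against 4.46% of promoters with H3K27Ac, 5.46% of those with H3K27Ac and an H3K4me3 level under 30, and 12.7% of all promoters. By level the TATA share was 22.1% against 9.89% with H3K27Ac under 10, 11.3% against 5.46% from 10 to 20, and 0% of 17 against 4.30% from 20 to 30. CCGGAAGT, the core bound by ETS factors, was in 0 of 150, against 10.6%, 4.5% and 4.51% in the same 3 sets. GGGCGG, the GC box of SP and KLF factors, was in 66.0% against 75.1% with H3K27Ac, and CCAAT, bound by NF-Y, in 33.3% against 38.1%. GGGCGG and CCGGAAGT contain a CG and so move with CpG content, and a match describes letters, not binding.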

How the data were processed

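Per the file headers, the authors deposited for 6 RNA libraries RPKM values, log2 ratios and p-values (raw and adjusted), and for each histone mark a rescaled log2 ratio (M), an average level on the log2 scale (A) and a −log10 p-value for every transcription start with an assigned peak. Per the submitters' processing notes, TopHat2 2.0.9, Bowtie 1.0.0, MACS2 2.0.10.20130712, DESeq and build hg19 (GRCh37) were used; how reads were counted is not given in the sources used here. The 6 columns of raw reads per ChIP library were not used, because neither headers nor labels say which library was treated, and input DNA was not used.

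From these files, starts were matched by transcript identifier, and the highest peak of a start was taken. Deposited starts count from 0 on the plus strand and were raised by 1. Peaks with identical values within 20000 bases were 1 peak. The level of the higher library was used, with a minimum of 30 for 2-fold differences. RNA values were compared on log2(RPKM + 0.1), which understates changes of low genes. No p-value was computed, since each group has 1 library, and nothing says that libraries came from separate cultures. Depth was read from low RPKM values, of which 91.3% to 95.7% were whole multiples (within 0.5%) of what 1 read is worth. The counting rules were tested on simulated data.

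The members and the gene lists were chosen with earlier results of these data known. Genes named are the 10 highest by H3K4me3 level, RNA level, H3K9Ac level and M in either direction, every gene past the IL-13 rule, up to 6 members of each list, and examples chosen after their values were seen. Some genes that this rule takes are not reported here. RefSeq promoters and microRNAs (GRCh38.p14) were matched by symbol. Alternatives changed the matching, the minimum level or RPKM, the pseudocount, the centring and the peaks counted. The tools were pandas 2.3.3, NumPy 2.4.6, SciPy 1.17.1 and matplotlib 3.10.9 under Python 3.11.15.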

Additional observations from a re-analysis of the deposited data

How the results depend on the processing

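With 1 library per group, no alternative carries a test. Over 78 alternatives for 18 results, 48 stayed within 1.5 times a count, the 95% Wilson interval of a share or the interquartile range of a median, and 30 did not. Requiring an H3K4me3 level of 30 left 36 starts, of which 80.6% had H3K9Ac, and of their 29 genes with no H3K27Ac start 51.7% reached an RPKM of 1. H3K9Ac was at 74.3% of starts called in both H3K4me3 libraries. With an RPKM of 0.5 or 0.1 as the limit, 33.0% and 57.8% of the genes passed. At a level of at least 10, library 2 held 72.6% of single-library peaks.

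With IL-13 and a minimum RPKM of 0.5, 4 genes were lower at 2 hr, 1 was higher at 6 hr and 6 were lower at 24 hr. With no minimum the counts were 9 lower at 2 hr, 3 higher at 6 hr, and 6 higher and 12 lower at 24 hr. With a pseudocount of 1, 1 was lower at 24 hr, and among genes of at least 300 bases 1 was higher. Between the 6 and 24 hr controls a pseudocount of 1 gave 15 higher and 2 lower, and the IL-13 libraries gave 3 lower. Except for the IL-13 libraries over time, shares of all genes were not computed under these settings.

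The 2-fold counts of peaks moved most. With no minimum level H3K4me3 gave 55 and 192 in libraries 1 and 2, and H3K9Ac 46 and 72. At a level of 60 H3K4me3 gave 0 and 0, and H3K9Ac 1 and 0. With a −log10 p of at least 5, H3K4me3 gave 0 and 0, and H3K9Ac 0 in library 2. Shares of all starts were not computed under these settings, so these counts have no background beside them. The causes were not tested. The share with H3K9Ac away from H3K27Ac starts (over 10 kb) was 50.1%. The low levels of most peaks limit every count here. No paired fit by time was made, because these results come from no test.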
